A study of Mus musculus with 10 samples.

Results

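The purinergic receptor set held 10 genes, picked by gene name for their roles. They were the ATP-gated channels P2rx4 and P2rx7, the nucleotide receptors P2ry2, P2ry6, P2ry13 and P2ry14, the adenosine receptors Adora2a, Adora2b and Adora3, and Entpd1, which encodes the ectonucleotidase CD39. All 10 had a row among the 29700 genes of the deposited count table (circular RNAs left out), and all 10 had enough counts to be tested. Bulk RNA-seq covered 5 control and 5 ox-LDL libraries of peritoneal macrophages, drawn by thioglycollate into the peritoneal cavity of C57BL/6 mice aged 8 weeks. Control cells are labelled as untreated, and ox-LDL cells as primed with LPS at 100 ng/ml and then exposed to ox-LDL at 100 ug/ml for 16 h. The single treatment protocol attached to all 10 samples names ox-LDL stimulation, and the study's text leaves room for control cells that were primed as well, so whether the control cells received LPS is uncertain. If they did not, LPS and ox-LDL cannot be told apart in this comparison, and if they did, the differences below are those of ox-LDL on primed cells. LPS is a component of bacterial outer membranes that activates macrophages, and ox-LDL is the oxidized lipoprotein that loads macrophages in atherosclerotic plaques. The labels do not say whether the 5 libraries of a group came from separate mice or from separate wells of pooled cells, so p-values measure the spread between these libraries.

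Extracellular ATP is a danger signal released by stressed and dying cells, and it opens P2X channels on macrophages. P2Y receptors are coupled to G proteins and read ATP, ADP, UTP, UDP or UDP-sugars. CD39 removes phosphates from ATP and ADP, CD73 (Nt5e) turns the resulting AMP into adenosine, and adenosine acts through its own receptors, of which those encoded by Adora2a and Adora2b raise cAMP and those encoded by Adora1 and Adora3 lower it. In macrophages, P2X7 drives potassium efflux and assembly of the NLRP3 inflammasome, whereas the Adora2a receptor restrains the production of inflammatory cytokines.

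Total counts were 20094647 to 20687289 per control library and 19257131 to 20358017 per ox-LDL library, so depth hardly differed between the groups. Levels within a gene are given as CPM, counts scaled to the library total after TMM normalization. Genes are compared with each other in FPKM, which is also scaled by transcript length. ox-LDL replicate 2 had a TMM factor of 0.593, the lowest of the 10 libraries (the others were at 0.837 to 1.19), and in it short genes were high relative to long ones (Spearman correlation across 12507 genes of the deviation from the group mean with gene length, -0.65), as they were in control replicates 1 and 4 (-0.58 and -0.47). Of all 10 libraries, ox-LDL replicate 5 was the highest for P2ry2, P2ry6, Adora2a, Adora2b and Entpd1 and the lowest for P2rx7. For the 10 genes, the value without such a library is given where the fold change moved by over 1.5 times or a call turned. Some fits that also leave out control replicate 5, set apart by earlier results of these data, are given too. Macrophage markers were abundant in both groups, with 2 of 8 called higher (Adgre1 and Cd14) and none lower. Their summed level was 19676 to 46844 CPM in the controls, most of it from Lyz2, and 12493 to 18114 CPM in 4 ox-LDL libraries, below every control, with ox-LDL replicate 2 at 47930.4 CPM. Cd68 was at 1494 ± 414 CPM in the controls and 1994 ± 450 CPM in ox-LDL libraries, and Adgre1 (F4/80) at 269 ± 53.5 and 1135 ± 355 CPM (mean ± SD, n = 5 per group). Of the lists for other cells, the summed level over 8 mesothelial and stromal markers was 13.8 to 48.8 CPM in the controls and 93.3 to 129 CPM in ox-LDL libraries, that over 9 neutrophil markers 6.76 to 16.0 and 11.6 to 154 CPM, and that over 7 B cell markers 41.2 to 50.6 and 15.9 to 26.7 CPM. Only 5 of the mesothelial and stromal, 1 of the neutrophil and 2 of the B cell markers had enough counts to be tested. The sums may therefore rest on few genes. The part of these cells in the receptor values was not tested. In these bulk libraries fewer cells of a type and less RNA per cell cannot be told apart.

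Of the 10 genes, 1 differed between the groups at an adjusted p below 0.01 in edgeR's quasi-likelihood test with Benjamini-Hochberg adjustment over 12654 genes. It was Adora2a, which was higher after ox-LDL, so 1 of 10 was called higher against a background of 9.4% of all genes tested (14.7% in either direction). It also had an absolute log2 fold change above 2, which together with the adjusted p was the case for 6.71% of all genes. None was called lower, against a background of 5.35%. Over all genes, 1189 were called higher and 677 lower, a split that turned to 555 and 750 with limma on log2(FPKM + 1). The same test gave 4 lower genes at an unadjusted p below 0.05 (background 15.8%) and 3 at an adjusted p below 0.05 (background 10.4%), namely P2rx7, P2ry13 and Adora3. DESeq2 called these 3 lower at 0.01, limma-voom called Adora3 alone, and limma on log2(FPKM + 1) did not call P2rx7, the only one of the 3 that it could test. Fitted log2 fold changes were positive for 5 genes and negative for 5, with a median of -0.12 against 0.10 over all genes tested. The control and ox-LDL libraries did not overlap in CPM for 1 higher gene, Adora2a (background 11.6%), and 1 lower gene, Adora3 (background 9.11%).

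**Figure D1:**
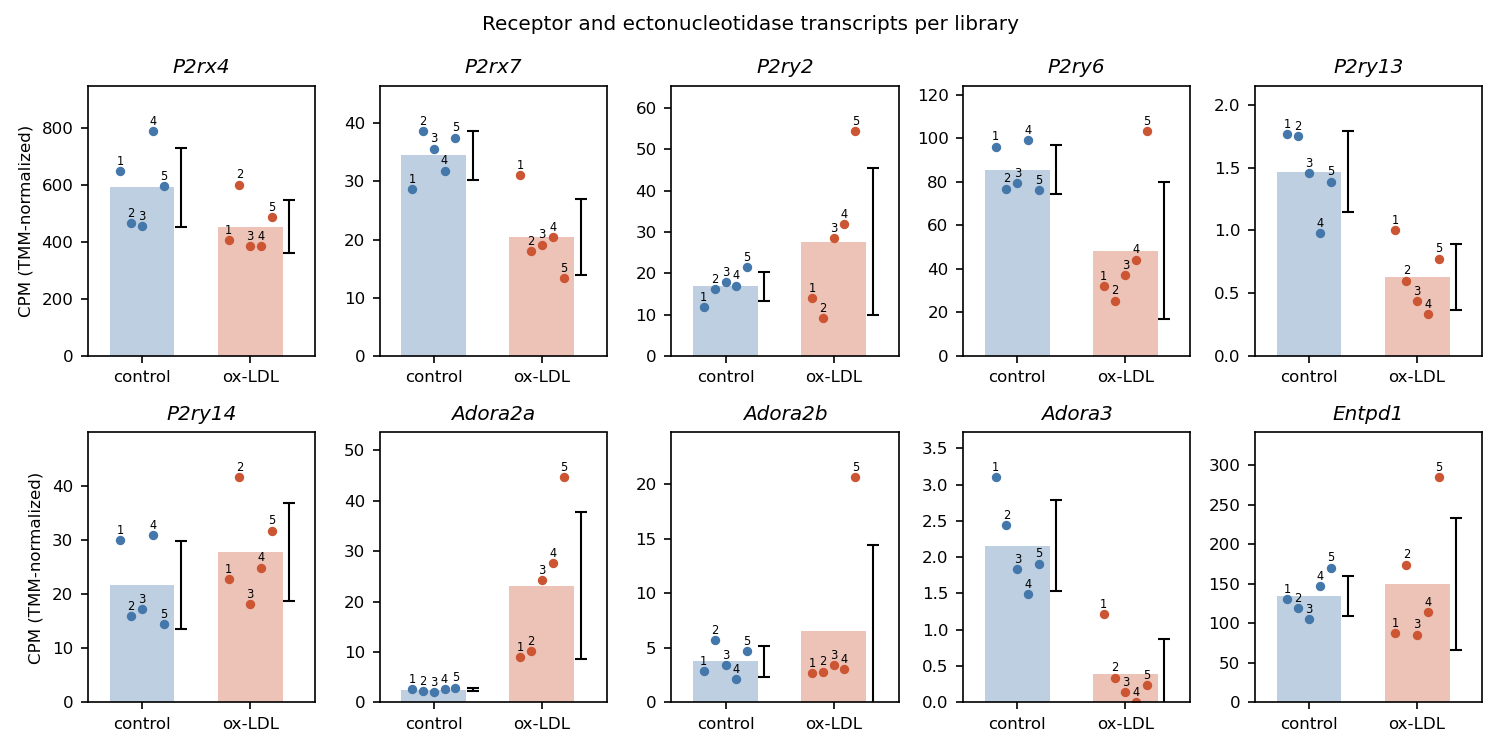
TMM-normalized CPM of each of the 10 genes in the 5 control (blue) and 5 ox-LDL (red) libraries, on a linear axis that starts at 0 and differs between panels. Points are libraries with their replicate number, bars are means and the line beside each bar is the SD, cut at 0 for Adora2b and Adora3 in the ox-LDL group. Adora2a is higher in every ox-LDL library than in every control, Adora3 is lower in every ox-LDL library, and P2ry6, Adora2b and Entpd1 have ox-LDL replicate 5 far above the rest of its group.

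Adora2a and Adora3 had the largest fitted fold changes of the set, and Adora2b did not pass the test. Adora2a (NCBI gene 11540, chr10:74779688-74797533 of mm9, plus strand) encodes the adenosine receptor of high affinity that signals through the stimulatory G protein to cAMP. Its level in the controls was 2.66, 2.31, 2.05, 2.63 and 2.95 CPM in replicates 1 to 5. In the ox-LDL libraries it was 9.04, 10.1, 24.2, 27.6 and 44.6 CPM. Every ox-LDL library lay above every control, with ox-LDL replicates 1 and 2 nearest to the controls and replicate 5 the highest. The mean rose from 2.52 ± 0.346 to 23.1 ± 14.6 CPM (mean ± SD, n = 5 per group), a 9.17-fold difference. The fitted log2 fold change was 3.20 (standard error, SE, 0.42, with an adjusted p of 2.43e-04 in edgeR). Over 24 alternative fits it was between 2.04 and 3.40, with an adjusted p of at most 0.00124. The lower end came from log2(FPKM + 1), a scale that understates the change of a gene with low control values.

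Adora2b (NCBI gene 11541, chr11:62062486-62079955 of mm9, plus strand) encodes a receptor that also raises cAMP but has a lower affinity for adenosine. The controls held 2.88, 5.69, 3.42, 2.16 and 4.69 CPM. The ox-LDL libraries held 2.65, 2.83, 3.41, 3.06 and 20.6 CPM. ox-LDL replicate 5 stood alone and the other 4 ox-LDL libraries were within the range of the controls. The log2 fold change was 0.78 (SE 0.59, adjusted p = 0.357), and leaving out ox-LDL replicate 5 gave -0.34 (adjusted p = 0.430), so its sign rested on 1 library.

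Adora3 (NCBI gene 11542, chr3:105673776-105711846 of mm9, plus strand) encodes the A3 receptor, which couples to the inhibitory G protein and is well known from mast cells. Control libraries held 3.10, 2.44, 1.84, 1.49 and 1.91 CPM, or 29 to 57 estimated counts. In ox-LDL replicates 1 to 5 the level was 1.22, 0.343, 0.146, 0.000 and 0.239 CPM, or 28, 3.90, 3, 0 and 4 estimated counts. All ox-LDL libraries were below all controls, and 4 of them were at or near the floor of 3 counts. The mean was 2.16 ± 0.626 CPM in the controls and 0.389 ± 0.480 CPM in ox-LDL libraries (mean ± SD, n = 5 per group). The log2 fold change of -2.41 (SE 0.69) had an adjusted p of 0.0231, above the threshold. The call differed with ox-LDL replicate 1 and with the test. Without that library the log2 fold change in edgeR was -3.64 and the adjusted p 0.00147. That fit drops the ox-LDL library nearest to the controls, so its lower p-value is no independent support. With all libraries Adora3 passed in DESeq2 (adjusted p = 0.00111) and limma-voom (0.00556). It also passed in edgeR with the replicate number as a block (0.00912). The annotation holds 2 gene records with the name Adora3, which share 105 exonic bases. The position given here is that of the first by gene identifier, and it was not matched to the start of the promoter window below. The neighbouring transcript Tmigd3 had 0 to 9.10 estimated counts in any library.

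Markers of cells known to carry the A3 receptor were low in these libraries, as was Adora3 itself (1.49 to 3.10 CPM in the controls). The sum of 8 mast cell and basophil markers was 0.770 to 9.95 CPM in the controls and 1.04 to 5.73 CPM in ox-LDL libraries, with Ms4a2 and Tpsab1 at no more than 3 counts in any of them. The sum of 4 eosinophil markers was 2.27 to 7.80 CPM in the controls and 0.341 to 1.13 CPM in ox-LDL libraries. The most abundant of them was Siglecf (4.32 ± 1.99 and 0.444 ± 0.258 CPM, log2 fold change -3.32, adjusted p = 3.17e-04 in edgeR), while Prg2 and Il5ra had at most 2 counts in any library. The part of these cells in the Adora3 values was not tested.

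On the FPKM scale, the summed level of the adenosine receptors was 4.59 ± 1.32 in control and 12.8 ± 8.37 in ox-LDL libraries (mean ± SD, n = 5 per group), with an overlap, since ox-LDL replicate 2 was at 3.72. Adora2a made up 26.4% ± 6.93 of the sum in control and 73.2% ± 11.5 in ox-LDL libraries, and its share was 18.5% to 37.2% in controls and 60.1% to 86.5% after ox-LDL. Adora2b made up 50.7% ± 9.40 and 24.3% ± 10.3, and Adora3 made up 22.9% ± 6.07 and 2.53% ± 3.92. Adora2b was the most abundant of the 3 per length in all 5 controls, and Adora2a in all 5 ox-LDL libraries. Adora1, which encodes the remaining adenosine receptor, had at most 3 counts in any library and was not tested.

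**Figure D2:**
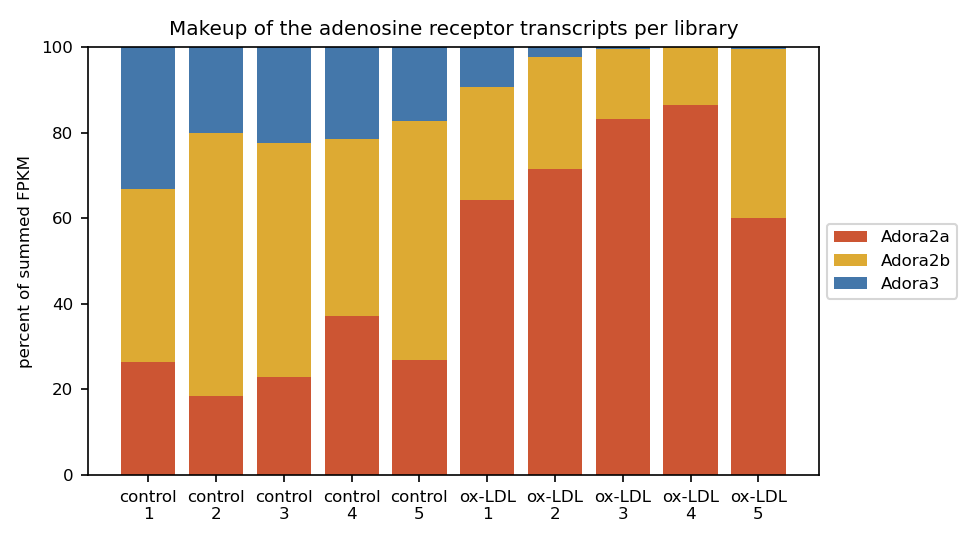
Share of Adora2a, Adora2b and Adora3 in their summed FPKM (percent, vertical axis) in each of the 10 libraries (horizontal axis). Adora2a takes 18.5% to 37.2% in the controls and 60.1% to 86.5% in the ox-LDL libraries, while Adora3 goes from 17.4% to 33.2% in the controls to at most 9.34%.

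The log2 ratio of Adora2a to Adora2b within a library, taken on FPKM + 1, was 1.92 higher after ox-LDL. It was -0.61 ± 0.42 in control and 1.31 ± 0.71 in ox-LDL libraries (mean ± SD, n = 5 per group). All 5 ox-LDL libraries (0.56 to 2.20) were above all controls (-1.16 to -0.08). This difference had the p-value 0.00794 in a two-sided exact permutation test over 252 arrangements, the smallest that 5 libraries against 5 allow. The adjusted p was 0.0198 (Benjamini-Hochberg over 5 ratios). The ratio reuses the Adora2a values called above, so it is no separate support for that call. Adora2a, at 1.15 FPKM in the controls, was near the added 1, which shrinks the difference. Over 13 alternatives the difference was between 1.70 and 2.64, and it passed in 12.

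Neither P2X channel passed the test. P2rx4 (NCBI gene 18438, chr5:123157593-123179747 of mm9, plus strand) encodes a channel found at the surface and in lysosomes of macrophages. It was at 648, 466, 454, 789 and 596 CPM in the controls and at 405, 600.3, 384, 385 and 487 CPM after ox-LDL. The groups overlapped, with ox-LDL replicate 2 above 3 of the controls. The log2 fold change was -0.39 (SE 0.24, adjusted p = 0.257). In FPKM, which does not use TMM factors, P2rx4 was at 240 to 338 in control and 160 to 218 in ox-LDL libraries without overlap, and limma on log2(FPKM + 1) gave -0.56 (adjusted p = 0.0475).

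P2rx7 (NCBI gene 18439, chr5:123093920-123141441 of mm9, plus strand) encodes the large ATP-gated channel of macrophages and ends 16151 bases before P2rx4. Control levels were 28.7, 38.6, 35.6, 31.8 and 37.5 CPM. After ox-LDL they were 31.1, 18.1, 19.1, 20.4 and 13.4 CPM. ox-LDL replicate 1 alone fell in the control range, and the other 4 ox-LDL libraries were below every control. The mean was 34.4 ± 4.14 and 20.4 ± 6.53 CPM (mean ± SD, n = 5 per group), with a log2 fold change of -0.75 (SE 0.22, adjusted p = 0.0231 in edgeR). Without ox-LDL replicate 1 the log2 fold change was -0.96 and the adjusted p 0.00319. That fit drops the only ox-LDL library within the control range, so its lower p-value is no independent support. The ratio of P2rx7 to P2rx4 within a library differed by -0.12 on the log2 scale (exact permutation p = 0.540) and did not pass.

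Among P2Y receptors, P2ry2 (NCBI gene 18442, chr7:108145086-108160505 of mm9, minus strand) encodes the receptor for ATP and UTP, known for sensing nucleotides from dying cells. Its control values were 11.7, 16.2, 17.9, 17.0 and 21.5 CPM. Its ox-LDL values were 13.96, 9.16, 28.5, 31.9 and 54.4 CPM. ox-LDL replicates 3 to 5 were above all controls, while replicates 1 and 2 were not. Its log2 fold change, 0.71 (SE 0.40), had an adjusted p of 0.213. It was 0.29 (adjusted p = 0.575) without ox-LDL replicate 5 and 0.89 (adjusted p = 0.0386) without ox-LDL replicate 2. Its libraries fell in nearly the order they had for Adora2a, with replicates 1 and 2 low and replicate 5 the highest.

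P2ry6 (NCBI gene 233571, chr7:108086152-108112905 of mm9, minus strand), 32180 bases from P2ry2, encodes the UDP receptor, linked to phagocytosis and chemokine release. The controls held 96.2, 76.9, 79.5, 99.2 and 76.1 CPM. The ox-LDL libraries held 32.0, 25.3, 37.0, 44.2 and 103 CPM. In 4 ox-LDL libraries the level was below every control, and in replicate 5 it was above every control. With all libraries the log2 fold change was -0.82 (SE 0.34, adjusted p = 0.0938). Leaving out ox-LDL replicate 5 gave -1.32 (adjusted p = 8.52e-04). Without control replicate 5, ox-LDL replicate 2 and ox-LDL replicate 5 together, a fit added after the data were seen, it was -1.27 (adjusted p = 3.78e-04). Both fits drop the only ox-LDL library that was not below every control, so their low p-values are no independent support.

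The log2 ratio of P2ry2 to P2ry6 separated the groups where the single genes did not. It was -2.84 ± 0.39 in control and -1.40 ± 0.36 in ox-LDL libraries (mean ± SD, n = 5 per group). Every ox-LDL library (-1.72 to -0.97) was above every control (-3.41 to -2.37), replicate 5 included. The difference was 1.44 (exact permutation p = 0.00794, adjusted over 5 ratios 0.0198), and it was between 1.29 and 1.55 when each library was left out in turn. P2ry6 was the more abundant of the pair per length in all 10 libraries.

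P2ry13 and P2ry14 lie 77271 bases apart on chromosome 3, both inside Med12l on the opposite strand, with no exonic bases shared with it. P2ry13 (NCBI gene 74191, chr3:59011818-59014804 of mm9, minus strand) encodes an ADP receptor coupled to the inhibitory G protein. It was low, at 1.77, 1.75, 1.45, 0.979 and 1.39 CPM in the controls and 1.000, 0.599, 0.439, 0.335 and 0.776 CPM after ox-LDL, or 19 to 41 and 7 to 23 estimated counts. Control replicate 4 and ox-LDL replicate 1 crossed, and the other libraries kept apart. The log2 fold change was -1.21 (SE 0.36, adjusted p = 0.0253).

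P2ry14 (NCBI gene 140795, chr3:58918548-58934546 of mm9, minus strand) encodes the UDP-glucose receptor, also coupled to the inhibitory G protein. It was at 30.0, 15.9, 17.2, 31.0 and 14.5 CPM in the controls and at 22.7, 41.5, 18.1, 24.9 and 31.7 CPM after ox-LDL. The groups overlapped widely, and ox-LDL replicate 2 was the highest library. A log2 fold change of 0.36 (SE 0.29, adjusted p = 0.394) was fitted. Leaving out ox-LDL replicate 2 alone gave 0.12 (adjusted p = 0.736), and without control replicate 5, ox-LDL replicate 2 and ox-LDL replicate 5 together the sign turned, to -0.16. The P2ry13 to P2ry14 ratio, taken on FPKM + 1, differed by -0.57 (exact permutation p = 0.0476, adjusted 0.0794) and did not pass. P2ry13 was at 0.40 to 0.84 FPKM in control and 0.15 to 0.50 FPKM in ox-LDL libraries, below the added 1, which shrinks the ratio. Over 13 alternatives the difference was between -1.62 and -0.46, and it passed in 3.

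Entpd1 (NCBI gene 12495, chr19:40686856-40816092 of mm9, plus strand) encodes CD39, which degrades the ligands of the P2 receptors. Its controls were at 131, 119.6, 106, 148 and 171 CPM and its ox-LDL libraries at 88.1, 174, 85.7, 114 and 285 CPM. The ox-LDL libraries lay on both sides of the controls, with replicate 5 the highest and replicates 1 and 3 the lowest. The log2 fold change was 0.15 (SE 0.33, adjusted p = 0.786), and it was negative under library size or upper quartile scaling and on FPKM. It was 0.046 without ox-LDL replicate 2 and -0.22 without ox-LDL replicate 5, so no direction can be given. Nt5e, which encodes CD73 and acts after CD39, was at 0.183 CPM in the controls and 0.330 CPM in ox-LDL libraries, too low to be tested. The Entpd1 to Nt5e ratio differed by -0.24 (exact permutation p = 0.389).

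**Figure D3:**
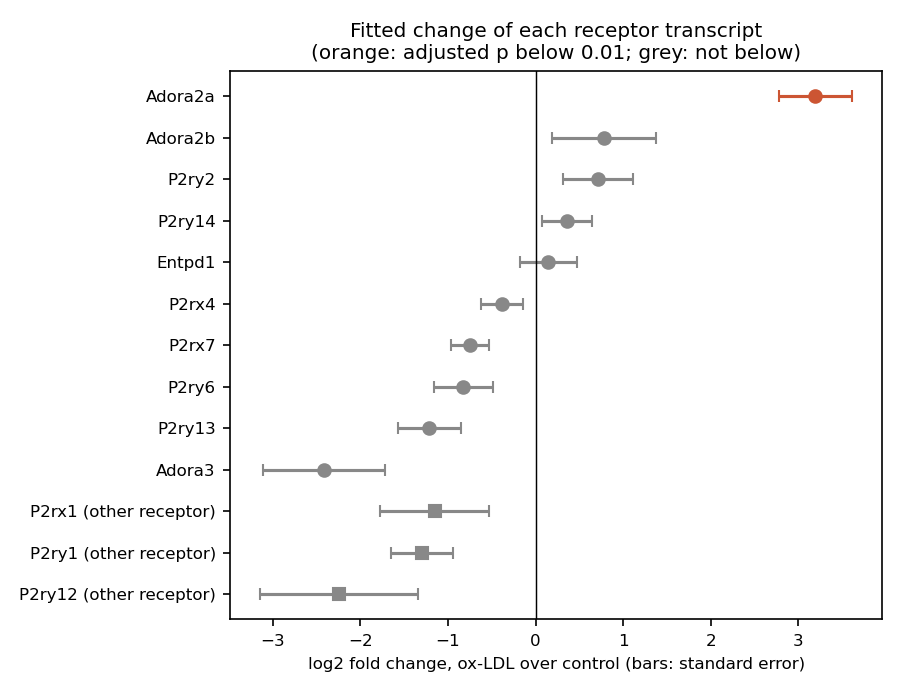
Fitted log2 fold change of ox-LDL over control (horizontal axis, edgeR) for the 10 genes (circles) and the other receptors with enough counts to be tested (squares), with standard errors as bars. Adora2a, at 3.20, is the only point below an adjusted p of 0.01. P2rx4, P2rx7, P2ry6, P2ry13, Adora3 and the other receptors P2rx1, P2ry1 and P2ry12 lie on the negative side.

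**Figure D4:**
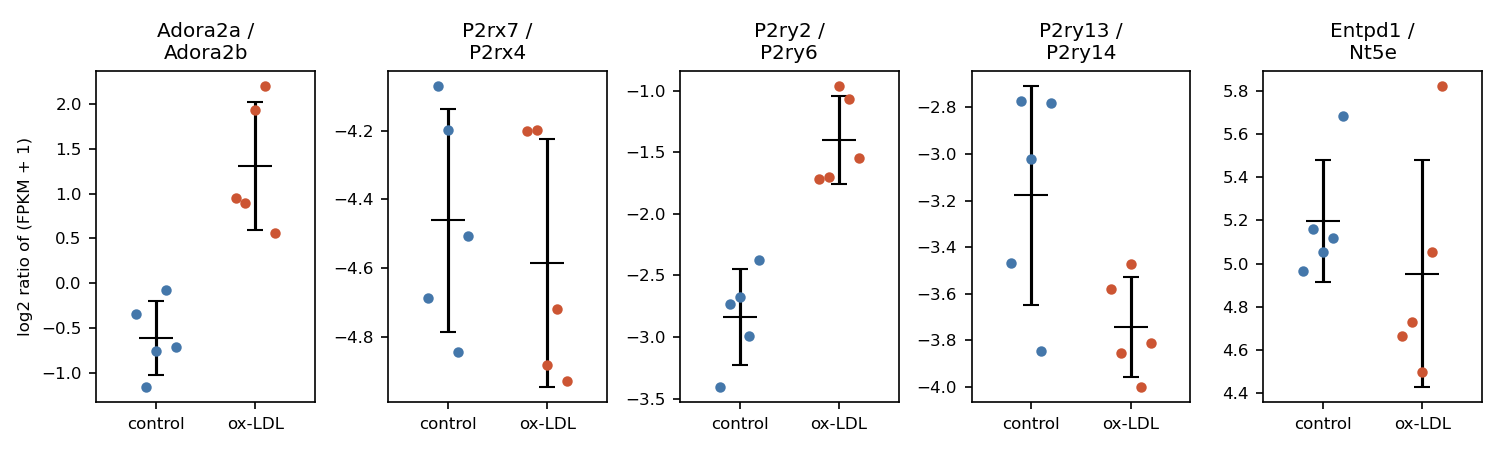
Log2 ratio of (FPKM + 1) between paired genes in each library (points), with group mean (horizontal tick) and SD (vertical bar), on axes that do not start at 0 and differ between panels. The groups separate for Adora2a over Adora2b and for P2ry2 over P2ry6 and overlap in the other 3 panels.

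Per length, P2rx4 was the most abundant of the set by a wide margin, with 279 ± 42.8 FPKM in control and 188 ± 21.0 FPKM in ox-LDL libraries (mean ± SD, n = 5 per group). It made up 76.6% ± 2.38 and 76.8% ± 5.55 of the summed FPKM of the 6 nucleotide receptors. That sum was 325 to 429 FPKM in the controls and 193 to 274 FPKM after ox-LDL, without overlap. This separation depends on the scaling, since FPKM does not use TMM factors. In CPM, P2rx4 overlapped between the groups (454 to 789 and 384 to 600, adjusted p = 0.257 in edgeR). The median log2 fold change over genes was -0.14 with limma on log2(FPKM + 1) and 0.10 in edgeR. In control libraries P2ry6 (50.9 FPKM) and Entpd1 (37.8 FPKM) came next and overlapped in range. P2ry14 (14.3 FPKM) and P2rx7 (11.7 FPKM) followed, also with overlapping ranges, then P2ry2 (6.45 FPKM), which overlapped Adora2b. Adora2b, Adora2a, Adora3 and P2ry13 were at 2.42, 1.15, 1.02 and 0.658 FPKM, each overlapping the next. After ox-LDL, Adora2a took the sixth place from the eighth, at 9.21 ± 5.42 FPKM, beside P2ry2 (9.40 FPKM) and P2rx7 (7.10 FPKM), from which its range was not separate. Adora3 (0.180 FPKM) and P2ry13 (0.254 FPKM) were at the bottom, apart from Adora2b (3.39 FPKM) and overlapping each other.

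Promoter windows from RefSeq (build GRCm38.p6, 250 bases before to 50 after a start) were found for 8 of the 10 genes, not for Adora2a or P2ry6. The windows below belong to the 3 genes with an adjusted p below 0.05 and a lower level after ox-LDL, and for P2rx7 it is the first of the listed starts. Each is printed 5′ to 3′ on the strand of the gene, with matches to any of the searched motifs in capitals. They lie at chr3:105904171-105904470 (plus strand), chr5:122643677-122643976 (plus strand) and chr3:59210833-59211132 (minus strand).
Adora3: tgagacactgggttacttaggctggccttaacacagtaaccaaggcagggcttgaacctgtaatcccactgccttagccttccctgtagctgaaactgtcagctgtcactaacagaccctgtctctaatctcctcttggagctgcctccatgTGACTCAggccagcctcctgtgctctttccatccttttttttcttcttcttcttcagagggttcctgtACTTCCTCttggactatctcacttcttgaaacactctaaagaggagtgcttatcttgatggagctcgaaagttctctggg
P2rx7: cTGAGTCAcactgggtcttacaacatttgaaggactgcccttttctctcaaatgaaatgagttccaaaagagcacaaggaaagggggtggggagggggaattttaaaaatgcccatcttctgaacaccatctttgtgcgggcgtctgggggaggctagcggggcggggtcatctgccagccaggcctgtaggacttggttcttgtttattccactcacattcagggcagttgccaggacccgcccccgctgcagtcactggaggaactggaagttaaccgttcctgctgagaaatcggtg
P2ry13: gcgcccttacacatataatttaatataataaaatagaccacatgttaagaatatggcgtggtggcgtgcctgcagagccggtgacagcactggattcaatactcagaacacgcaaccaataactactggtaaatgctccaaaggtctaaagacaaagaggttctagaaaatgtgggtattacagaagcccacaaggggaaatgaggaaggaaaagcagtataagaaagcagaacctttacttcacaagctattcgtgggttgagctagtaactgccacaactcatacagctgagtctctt

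Searched on both strands were AP-1 (TGANTCA), CRE (TGACGTCA), PU.1 (GAGGAAGT) and the TATA box (letters TATAAA). The Adora3 window held an AP-1 match 98 bases and a PU.1 match 30 bases before the start. The PU.1 match is on the opposite strand, so the printed strand reads ACTTCCTC. The P2rx7 window held an AP-1 match 249 bases before the start, and its second listed start a PU.1 match 3 bases after it. No match was found in the P2ry13 window. Over all windows of the set, AP-1 was matched in 4 of 14 windows, which belong to 3 of the 8 genes, P2rx7, P2ry14 and Adora3. Some of these windows overlap. Of 32851 windows of the same length in the table, 7.81% held AP-1, 1.79% CRE, 3.2% PU.1 and 13.6% TATA. A match describes letters in the window, and binding was not measured.

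The genes whose pattern over the 10 libraries was most like that of Adora2a were Susd2 (0.28), Nfkbie (0.29) and Pmepa1 (0.30). Likeness was the root mean square difference of log2(CPM + 0.5) after centring on each gene's mean. In the controls Susd2 (0.110 ± 0.0459 CPM) and Pmepa1 (0.205 ± 0.0368 CPM) were below the added 0.5, which shrinks their differences. In ox-LDL libraries they were at 4.50 ± 2.97 and 4.11 ± 2.20 CPM. Nfkbie, which encodes an inhibitor of NF-kB, was at 4.14 ± 0.853 CPM in the controls and 31.3 ± 19.7 CPM in ox-LDL libraries. Nearest to Adora3 were Abcg2 (0.20), Rgs14 (0.25) and Fam117a (0.27), and nearest to P2rx7 were B4gat1 (0.12), Tada3 (0.14) and 2810021J22Rik (0.14). The mean of Adora3 in ox-LDL libraries, 0.389 CPM, was also below the added 0.5. Abcg2 was well above it, at 11.7 ± 2.79 CPM in the controls and 3.72 ± 2.12 CPM in ox-LDL libraries.

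The other P2 and adenosine receptors were at or near 0 in most cases. Of 9 with a row, 3 had enough counts to be tested, none was called in edgeR at 0.01 (2 were lower at an unadjusted p below 0.05, 1 was called lower by DESeq2 and 2 by limma-voom), and their median log2 fold change was -1.30. P2ry1, an ADP receptor, was at 8.30, 11.8, 10.6, 8.29 and 8.90 CPM in the controls and 6.13, 2.14, 4.88, 4.74 and 1.43 CPM in ox-LDL libraries. These groups did not overlap, and the log2 fold change was -1.30 (SE 0.35, adjusted p = 0.0168). P2ry12, the ADP receptor of platelets and microglia, was at 0.608 to 1.71 CPM in control, and 3 of 5 ox-LDL libraries had none (log2 fold change -2.25, adjusted p = 0.0857). P2ry12 had at most 31 estimated counts in any library. Apart from ox-LDL replicate 1, at 0.826 CPM, no ox-LDL library was above 0.0597 CPM. Its adjusted p of 4.67e-04 without that library therefore follows from the library left out and is no further support. With P2ry13, all 3 ADP receptors had negative fold changes, and none passed at 0.01 in edgeR with all libraries. DESeq2 called P2ry1 and P2ry13 lower (adjusted p = 7.04e-04 and 0.00605), and limma-voom called P2ry1 and P2ry12 lower (adjusted p = 0.00887 and 0.00412). Platelet markers were near 0 (Gp9 had no count in any library, and the sum of 5 markers was at most 0.942 CPM).

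Enzymes that act on extracellular nucleotides changed in both directions, with 3 of 6 tested genes higher and 1 lower (background 9.4% and 5.35%). Their median log2 fold change was 1.83. Calls were 2 higher and 2 lower with DESeq2, and 3 higher and 2 lower with limma-voom and with limma on log2(FPKM + 1). Enpp1 was called lower with each of these but not in edgeR (log2 fold change -1.33, adjusted p = 0.0266). Enpp1 was at 36.6 ± 7.12 CPM in the controls and 14.6 ± 9.90 CPM in ox-LDL libraries, with an overlap. Cd38 and Bst1, which encode NAD-degrading ectoenzymes, rose in all 5 ox-LDL libraries. Cd38 was at 8.19 ± 2.74 CPM in the controls and 281 ± 226 CPM in ox-LDL libraries (log2 fold change 5.10, adjusted p = 3.40e-05), and Bst1 was at 85.4 ± 12.5 and 740.0 ± 358 CPM (3.11, adjusted p = 6.67e-05). Acpp, which encodes an acid phosphatase able to turn AMP into adenosine, rose from 3.10 ± 0.970 to 43.1 ± 20.3 CPM (3.80, adjusted p = 5.76e-05). Ada, which encodes adenosine deaminase and removes adenosine, fell from 2.90 ± 0.609 to 1.02 ± 0.242 CPM without overlap (-1.51, adjusted p = 0.00220), a call lost with the replicate number as a block (adjusted p = 0.0108).

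Of 10 genes for nucleoside uptake and adenosine handling inside the cell, 2 rose and none was called lower in edgeR, against a background of 9.4% and 5.35% (median log2 fold change 0.10, with 4 lower at an unadjusted p below 0.05 and 1 called lower by each of DESeq2, limma-voom and limma on FPKM). Ampd3, AMP deaminase, rose from 11.3 ± 2.80 to 78.1 ± 46.8 CPM (log2 fold change 2.79, adjusted p = 4.48e-04), and Pnp, purine nucleoside phosphorylase, from 106 ± 13.4 to 343 ± 203 CPM (1.70, adjusted p = 0.00456). The call of Pnp was lost when any of the 5 controls or ox-LDL replicate 5 was left out (adjusted p up to 0.0155) and with the replicate block (0.0173). Adk, adenosine kinase, was at 54.7 ± 7.48 CPM in the controls and 21.9 ± 12.1 CPM in ox-LDL libraries without overlap (-1.32, adjusted p = 0.0106). Slc29a1, the equilibrative adenosine transporter, was at 58.4 ± 8.85 and 40.5 ± 6.33 CPM (-0.53, adjusted p = 0.0413), again without overlap.

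Among 8 tested genes for ATP release, 2 rose and 2 fell (background 9.4% and 5.35%). DESeq2 called 4 higher and limma-voom 1, and both called 2 lower. Calhm6, of the large-pore channel family of calcium homeostasis modulators, rose from 5.11 ± 2.91 to 351 ± 383 CPM (log2 fold change 6.10, adjusted p = 1.69e-04), with ox-LDL replicate 2 at 1024 CPM and the other ox-LDL libraries at 125 to 302 CPM. Its relative Calhm2 fell from 8.73 ± 1.97 to 2.95 ± 1.10 CPM (-1.55, adjusted p = 0.00157), a call lost when scaled by library size alone (adjusted p = 0.0103). Ank, a membrane protein that exports pyrophosphate and ATP, fell from 20.7 ± 4.54 to 4.28 ± 2.66 CPM (-2.26, adjusted p = 0.00378), a call lost without control replicate 2 (adjusted p = 0.0101) and with library size alone (0.0115). Panx1, which encodes the ATP channel pannexin 1, was at 7.45 to 10.6 CPM in the controls and at 25.8, 8.22, 29.4, 32.6 and 22.0 CPM in ox-LDL libraries. Only ox-LDL replicate 2 was in the control range. Its log2 fold change of 1.42 (adjusted p = 0.00529) passed, but it did so in 10 of 24 alternatives, and leaving out any library but ox-LDL replicates 2 or 5 lost the call (adjusted p up to 0.0180).

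The G proteins, cyclases and phospholipases downstream of the receptors held 21 tested genes, of which 2 rose and none was called lower in edgeR, against a background of 9.4% and 5.35% (median log2 fold change -0.16, with 4 lower at an unadjusted p below 0.05, 2 called lower by DESeq2 and none by either form of limma). Gna13 rose from 128 ± 17.4 to 408 ± 134 CPM (1.67, adjusted p = 5.72e-04). Pde4b, which encodes a phosphodiesterase that degrades cAMP, rose from 3.11 ± 0.487 to 18.1 ± 11.7 CPM (2.54, adjusted p = 5.21e-04). In the ox-LDL libraries Pde4b was at 8.09, 12.2, 14.6, 17.4 and 38.2 CPM, again with replicate 5 the highest. Gnas, which encodes the stimulatory G protein used by the Adora2a receptor, was at 654 ± 79.1 and 543 ± 39.9 CPM (-0.27, adjusted p = 0.332).

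Among 11 tested genes known to respond to cAMP, 2 rose (Pde4b and Dusp1) and 1 fell (Rgs2), against a background of 9.4% and 5.35%, with a median log2 fold change of 1.04 beside 0.10 over all genes tested. The count that rose was 6 with DESeq2 and 1 with limma-voom. Rgs2, which encodes a brake on G protein signaling, fell from 171 ± 32.0 to 12.4 ± 7.09 CPM (-3.78, adjusted p = 2.95e-05). Dusp1, a phosphatase of MAP kinases, was at 27.9 ± 5.40 and 92.0 ± 52.1 CPM with an overlap from ox-LDL replicate 1 (1.72, adjusted p = 0.00611). Its call held in 11 of 24 alternatives, and it was lost without any single control and without ox-LDL replicate 3, 4 or 5 (adjusted p up to 0.0204). Crem, Per1 and Vegfa had log2 fold changes of 1.46, 1.87 and 1.77 and did not pass in edgeR (adjusted p = 0.0181, 0.0137 and 0.0142), whereas DESeq2 called all of them higher (adjusted p = 0.00404, 0.00121 and 0.00147).

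Of 10 genes of the P2X7 pathway to the inflammasome, all tested, 3 rose and 1 fell (background 9.4% and 5.35%). Nlrp3, the sensor of the inflammasome, was at 2.16 to 3.29 CPM in the controls and at 6.78, 5.74, 18.4, 27.1 and 33.2 CPM in ox-LDL libraries (log2 fold change 2.88, adjusted p = 8.99e-04), low in replicates 1 and 2 as Adora2a was. Il1a rose from 48.3 ± 18.9 to 979 ± 835 CPM (4.34, adjusted p = 1.87e-04). Gsdmd, the pore protein of pyroptosis, rose from 44.4 ± 4.41 to 104 ± 42.4 CPM (1.22, adjusted p = 0.00360), with the call lost without control replicate 2, 3 or 4 (adjusted p up to 0.0135), with library size alone (0.0110) and with the replicate block (0.0117). Il1b, which encodes the main cytokine released by the inflammasome, was at 0.155 to 16.8 CPM in the controls and at 18.3, 88.0, 65.1, 40.2 and 2957 CPM in ox-LDL libraries. The groups did not overlap, control replicate 5 and ox-LDL replicate 5 being the highest of each, and its log2 fold change of 7.46 (SE 2.03) did not pass in edgeR (adjusted p = 0.0180). For Il1b it was 3.89 (adjusted p = 0.0512) without ox-LDL replicate 5 and 11.20 (0.00332) without control replicate 5, while limma on log2(FPKM + 1) and the replicate block called it higher with all libraries (adjusted p = 0.00347 and 7.07e-05). Kcnk6, which encodes the potassium channel TWIK2 that acts with P2X7, fell from 18.4 ± 3.87 to 7.41 ± 3.09 CPM without overlap (-1.31, adjusted p = 0.00587). The call of Kcnk6 held in 14 of 24 alternatives and was lost without any of control replicates 2 to 5 or ox-LDL replicate 3 or 5 (adjusted p up to 0.0176).

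**Figure D5:**
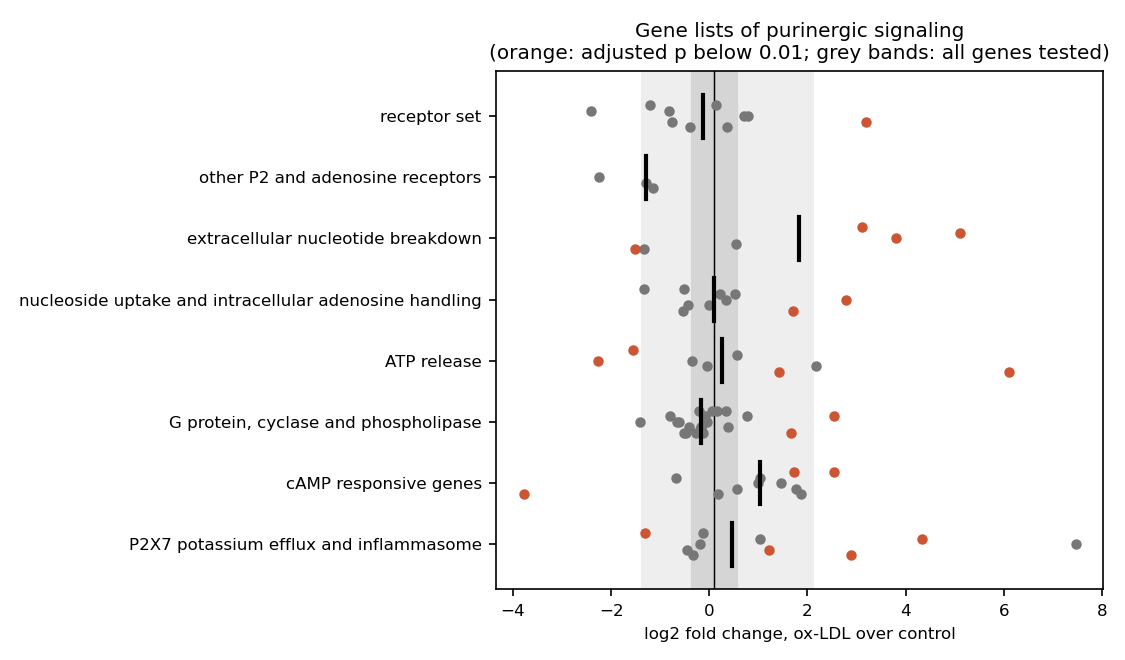
Fitted log2 fold change of ox-LDL over control (horizontal axis) for the tested genes of 8 lists (rows), with list medians as black ticks, called genes in orange and others in grey. Grey bands run from the 25th to the 75th and from the 5th to the 95th percentile of all genes tested, and the thin line is their median. The receptor set lies mostly within the bands with Adora2a to the right of them and Adora3 to the left, while Cd38 and Calhm6 are the rightmost called genes and Il1b, at 7.46, is the rightmost gene that was not called.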

How the data were processed

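RNA of 10 mouse macrophage libraries was sequenced on a BGISEQ-500. The submitters' processing notes name HISAT2 2.0.5, SAMtools 1.4, StringTie and the build mm9. The authors deposited gene-level estimated counts in 1 table, and 13.6% of them were not whole numbers, and the counting step and its use of strand are not given in the sources used here. The authors made a second set of values without naming a unit, taken here as FPKM because counts divided by them gave a nearly constant length for each gene (96.2% of values within 10% of the gene's median over 5044 genes). Columns of all tables were mapped to samples by their names.

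Rows of 9788 circular RNAs were left out. Estimated counts were rounded, filtered with filterByExpr by group (minimum count 10), TMM-normalized and fitted with edgeR 4.0.16 (quasi-likelihood, robust, no covariate) in R 4.3.3, with Benjamini-Hochberg adjustment over 12654 genes and a threshold of 0.01. The SE of a fold change is its size divided by the square root of F. The biological coefficient of variation was 37.3%. Ratios between genes used log2(FPKM + 1) and two-sided exact permutation over 252 arrangements. Libraries of a group differed from each other by far more than sampling noise. The scripts were tested on simulated data.

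Genes named were the 10 members, called genes of the pathway lists (up to 8 a list by fold change), genes paired with a member by role, and the 3 genes most like each of the 3 members with the lowest adjusted p. Some further list genes were named after their values were seen (P2rx1, Enpp1, Adk, Slc29a1, Gnas, Crem, Per1, Vegfa and Il1b, and marker genes of the cell type lists). The members and lists were chosen with earlier results of these data known. Symbols came from a RefSeq table of GRCm38.p6, gene positions from GENCODE on NCBIM37 (mm9), and promoters from RefSeq on GRCm38.p6. The alternatives were limma 3.58.1 (voom, and on FPKM with a pseudocount of 1 or 0.1), DESeq2 1.42.0, other scalings and filters, other rows, removal of each library's trend on gene length, a replicate block, other thresholds, and each library left out. A fit without control replicate 5, ox-LDL replicate 2 and ox-LDL replicate 5 was added after the data were seen.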

Additional observations from a re-analysis of the deposited data

Results flagged for a closer look

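Among 30 groups of 5 libraries (10 genes and 5 ratios in 2 conditions), 4 held a library whose distance to the nearest other library took up more than 0.71 of the range of its group. For independent groups of normally distributed values, chance gives this in about 1 in 20 groups, or 1.5 here. The groups share the same libraries and the genes were taken in CPM without a log scale, so this number is only a rough guide. For P2ry6, ox-LDL replicate 5 was at 103 CPM and the next library at 44.2 CPM, a distance of 0.758 of the range. For Adora2b the same library was at 20.6 CPM against 3.41 CPM (0.958). For Adora3, ox-LDL replicate 1 was at 1.22 CPM against 0.343 CPM (0.719). The log2 ratio of Entpd1 to Nt5e was 5.68 in control replicate 5 against 5.16 in the next control (0.725).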

How the results depend on the processing

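Adora2a was the 1 member called higher under all 26 alternatives, with an adjusted p between 4.53e-12 and 0.00124. The count of members called lower was 0 and rose to 3 with DESeq2 and with an adjusted p below 0.05, to 1 with limma-voom, with the gene length trend removed, with the replicate block and without control replicate 5, ox-LDL replicate 2 and ox-LDL replicate 5 together, and to between 0 and 2 with each library left out (2, P2rx7 and Adora3, without ox-LDL replicate 1, and 1, P2ry6, without ox-LDL replicate 5). The genes were P2rx7, P2ry13 and Adora3 for DESeq2 and 0.05, Adora3 for voom and the block, P2rx7 for the length trend and P2ry6 without the 3 libraries. The cause was not tested. Signs turned for P2ry14 (-0.16) and Adora2b (-0.27) without the 3 libraries, and for Adora2b between -0.34 and 0.99 with each library left out. For Entpd1 the log2 fold change was -0.12 with library size alone, -0.039 with upper quartile, -0.21 and -0.22 on log2(FPKM + 1) and log2(FPKM + 0.1), -0.45 without the 3 libraries, and -0.22 to 0.29 with each library left out. Library size alone and upper quartile moved the median of all genes by -0.19 and -0.14.

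Over the other lists, 13 of 68 tested genes were called higher (19.1%, against 9.4% of all genes) and 5 lower (7.35% against 5.35%). The lists were chosen with earlier results of these data known, so these shares are descriptive only. The higher count was 9 to 19 over the alternatives. The lower count was 11 with DESeq2 and with the length trend removed, 9 with limma-voom and without the 3 libraries, and 3 (without control replicate 2) to 8 (without ox-LDL replicates 1 or 2) with each library left out. The P2ry13 to P2ry14 ratio passed with log2(FPKM + 0.1) (-1.32), with counts per length (-1.62) and without control replicate 4, and was -0.73 to -0.46 with each library left out. Replicate numbers did not pair the libraries (same-number correlations of deviations from -0.28 to 0.44, and only replicate 5 correlated best with its own number). With the replicate block, 1434 genes were called in place of 1866, and the differences of 1.92 and 1.44 for the Adora2a and P2ry2 ratios had an adjusted p of 0.104, since 5 pairs cannot go below 0.0625. All genes called were 3253 with DESeq2, 2875 with the length trend removed, 3599 without the 3 libraries and 1262 (without control replicate 4) to 3257 (without ox-LDL replicate 2) with each library left out. DESeq2 gave no adjusted p for Adora2b and Cd38. P2ry13 and Adora3 were not tested on FPKM or with at least 10 counts in every library, and intervals for their few counts would cover counting error only.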
